A study of Mus musculus with 6 samples.

Results

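Peaks of the m6A reader YTHDC1 on pseudogenes were examined in C2C12 cells, a line of mouse myoblasts. The members are the peaks of C2C12 replicate 1 that overlapped a replicate 2 peak on the same strand by at least 1 nt and that lay on a gene of a pseudogene class in GENCODE vM1, on the strand of the bound RNA, with no protein-coding gene on that strand. There were 939 such peaks among the 29087 C2C12 peaks found in both libraries, a share of 3.23% (exact 95% interval 3.03 to 3.44%), and they lay on 426 of 5209 annotated pseudogenes. With the peak caller's p of at most 0.00001 in both libraries the count was 170, and with a single library 1577 to 1590. Intervals on shares of peaks, here and below, cover counting error across peaks only, and peaks of one pseudogene or of one sequence are not independent of each other.

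YTHDC1 binds RNA that carries N(6)-methyladenosine, and LACE-seq maps where it is crosslinked to RNA, methylated or not: proteins were crosslinked to RNA with UV light, YTHDC1 was pulled down with an antibody, and the crosslinked nucleotide halted the reverse transcriptase. All libraries were labelled WT and crosslinked alike, 2 from C2C12 cells in growth medium and 4 from ASC-48h, satellite cells, the stem cells of muscle, after 48 h of activation in culture (biological replicates 1 and 2, each with technical replicates 1 and 2). Satellite cells were sorted by a fluorescent reporter that the mice carried, and far fewer cells went into the ASC libraries than into those of C2C12. No library without the antibody was analysed here. C2C12 is a single established line. Its libraries are biological replicates in the labels but technical replicates in the study's text, so the SDs given below may measure technical spread alone. C2C12 replicate 1 listed 60540 peaks with 523067 reads and replicate 2 listed 71992 peaks with 607366 reads; reads per 20-nt bin are the unit throughout, without scaling, and the lowest value listed in either library was 6. Total library depth is unknown, since peaks alone were listed. Of the myoblast markers, Des had 10 shared peaks, Itga7 11, Cdh15 3, Myf5 2, Cdk4 2 and Myod1 0, whereas the myotube markers Myh3, Ckm, Acta1 and Myog had 0. Of the markers of other cell types, the fibroblast marker Pdgfra and the endothelial marker Pecam1 had 1 each, and Pax7, Thy1, Cdh5, Ptprc, Cd68, Adipoq and Plin1 had 0.

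A processed pseudogene is a copy of a mature mRNA that was reverse transcribed and inserted elsewhere in the genome, so it lacks the introns of its parent and carries the parent's exon junctions as continuous sequence. Highly expressed housekeeping genes, such as those of ribosomal proteins and glycolytic enzymes, have left many such copies in the mouse genome. An aligner without a splice model can place a read that reaches well across an exon junction of an mRNA only where a continuous copy exists. A read that overhangs the junction by no more nt than the mismatches allowed can also be placed in the parent gene. A read from an exon inside the parent fits parent and copy alike until the copy has diverged.

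Of the 939 members, 844 (89.9%, 87.8 to 91.7%) had another exact copy of their central 20 nt in the mm9 genome, against 40.2% of all C2C12 shared peaks. The central 20 nt of 789 members (84.0%, 81.5 to 86.3%) were found in a spliced protein-coding transcript, against 58.2% of all shared peaks. In 73 members (7.77%, 6.14 to 9.68%) the sequence crossed an exon junction of a coding transcript and had no copy inside that gene, against 0.536% of all shared peaks. With 40 nt and up to 2 mismatches, which changes both the length and the mismatches allowed, 147 members (15.7%) crossed one. No share of all shared peaks is given for that search, and the 0.536% is for the exact 20 nt. By definition a peak inside the gene of the crossed transcript cannot count toward the 0.536%. The 155 peaks behind it also include the 73 members, so it is no independent background. The 20 nt of each of the 73 members are present in a spliced mRNA and in the pseudogene, and not in the gene of that mRNA. Other places in the genome were not excluded, and 34 of the 73 also had an exact copy in a coding exon. The sequences of the junction members show where the junction falls. For 8 of them the pseudogene was the one place in the genome that held the 20 nt. Of these 8, 7 are given first, followed by others of the 10 junction members with the most reads. Each is the RNA strand, 5′ to 3′, read from mm9, with the part that comes from the downstream exon of the coding transcript in capitals.
Cd9-ps (chromosome 7, 48938081 to 48938100, minus strand, Cd9 exons 7 and 8): atgATCTTCGGCATGATCTT
Slc39a1-ps (chromosome 2, 30015081 to 30015100, plus strand, Slc39a1 exons 2 and 3): ctaaccatgaagcttcagCC
Gm9786 (chromosome 17, 17482541 to 17482560, minus strand, Oaz1 exons 5 and 6): gacagagCCGCCCTACTCCG
Gm11516 (chromosome 11, 90721301 to 90721320, minus strand, Cct3 exons 12 and 13): ggGCCAAGCACACACAGGAG
Gm5446 (chromosome 13, 20087181 to 20087200, minus strand, Srsf10 exons 5 and 6): ccgacaatgatagATTCAAA
Akt2-ps (chromosome 11, 16414701 to 16414720, plus strand, Akt2 exons 3 and 4): ttctctgtagcagAATGCCA
Akt2-ps (chromosome 11, 16415161 to 16415180, plus strand, Akt2 exons 7 and 8): ggcaccccttccttacaGCC
Gm13699 (chromosome 2, 80677601 to 80677620, plus strand, Eno1 exons 1 and 2): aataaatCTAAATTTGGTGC
Rpl3-ps1 (chromosome X, 12780181 to 12780200, plus strand, Rpl3 exons 4 and 5): atcattgcccacactcagAT
Gm13050 (chromosome 4, 142833141 to 142833160, minus strand, Eef2 exons 8 and 9): gagAACCATTCTGATGATGG
Gm14439 (chromosome 2, 174887921 to 174887940, plus strand, Rpl27a exons 1 and 2): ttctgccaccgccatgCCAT
Gm5643 (chromosome X, 138732781 to 138732800, plus strand, Hnrnpa1 exons 6 and 7): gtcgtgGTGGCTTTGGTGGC
Gm15590 (chromosome 17, 6132301 to 6132320, minus strand, Ftl1 exons 1 and 2): acacctacctctctctgGGC
Gm17510 (chromosome 3, 92493921 to 92493940, plus strand, Ywhaz exons 5 and 6): gcaaaaacaGCTTTCGATGA
Gm8355 (chromosome 10, 14465781 to 14465800, minus strand, Hspa8 exons 6 and 7): ggtgtactcattcagGTGTA

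The junction member with the most reads lay on Gm13699, a copy of Eno1, the glycolytic enzyme enolase, and held 28 reads per bin in replicate 1 and 32 in replicate 2 (30 ± 2.83, SD, n = 2). Rpl3-ps1, a copy of the ribosomal protein gene Rpl3, held 23 and 14 reads. Gm13050, which matches the elongation factor gene Eef2, held 13 and 18. The Cd9-ps member, from the gene of a tetraspanin, held 14 reads in both libraries, the most of the junction members with a single place in the genome. The others of that kind held 6 to 13. Slc39a1-ps, whose parent encodes a zinc transporter, held 13 and 9 reads, Gm9786 (Oaz1, the antizyme of ornithine decarboxylase) 8 and 8, Gm5446 (Srsf10, a splicing factor) 7 and 7, and Gm11516 (Cct3, a chaperonin subunit) 8 and 6. The Akt2-ps members held 7 and 6 reads and 6 and 6. The first of these also had 10 or more consecutive G on the strand of the reads no farther than 20 nt away. Such G runs were found at 2 members of 939, against 2.2% of all shared peaks.

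To see how the peaks sat relative to the parent's exon junctions over more of the members, the 60 nt around each member were aligned to the transcript of the closest coding gene. A closest coding gene, by blastn over at least 50% of the pseudogene, was found for 419 of the 426 pseudogenes, with a median identity of 96.8%, and for 403 of these pseudogenes that gene had introns and a full symbol. Of the 59 pseudogenes whose symbols name a parent (text before -ps), 53 had that gene as the closest, and the remaining 6 had symbols in an older or family form, such as Hsp25-ps1 for Hspb1. With at most 6 edits, 838 members could be placed, 468 of them with no edit in 60 nt, and 753 (89.9%) lay in the coding sequence, 56 in the 3′ UTR and 29 in the 5′ UTR of the parent. Of 796 members on transcripts with a junction, 88 (11.1%, 8.96 to 13.4%) were centred less than 10 nt from one. The shared peaks that lay on the exons of the same coding transcripts did so in 26 of 658 cases (3.95%, 2.60 to 5.74%), and 6.07% of the positions of these transcripts are that close to a junction. Within 20 nt the shares were 22.4% of members (19.5 to 25.4%), 10.5% of the parents' own peaks (8.25 to 13.1%) and 12.4% of positions. The members' intervals lay above the share of positions at both distances, and that of the parents' peaks lay below it within 10 nt but included it within 20 nt. A transcript with many pseudogenes weighs more among the members than among the positions or the parents' own peaks. The shares therefore cover different mixes of transcripts and exon lengths, and they were not adjusted for this. No test was run on these shares.

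**Figure D1:**
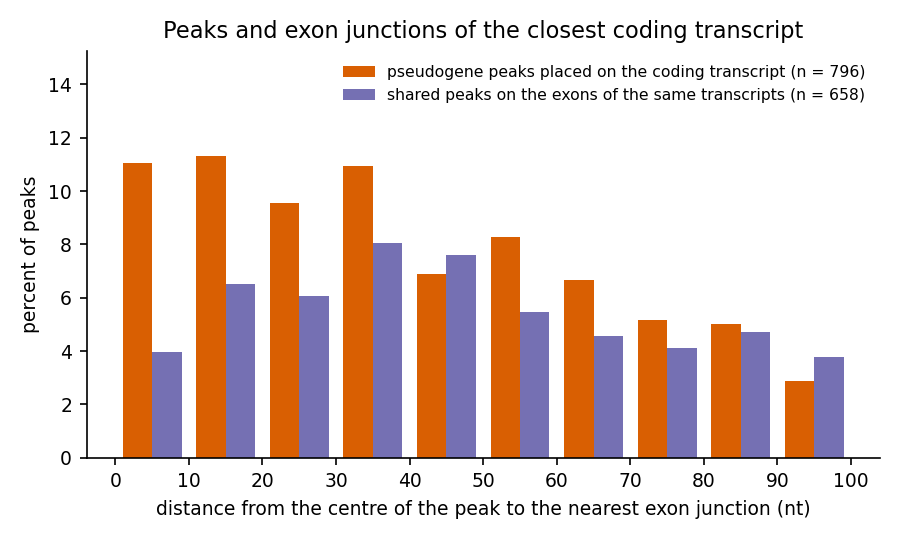
Distance from the centre of each peak to the nearest exon junction of the coding transcript (x axis, nt, in classes of 10 nt up to 100) against the percent of peaks in that class (y axis), for 796 pseudogene peaks placed on the transcript of their closest coding gene and for 658 shared peaks on the exons of the same transcripts. In the class nearest to a junction the pseudogene peaks reach 11.1% and the peaks on the coding genes 3.95%. Transcripts are weighted differently in the sets compared.

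Most members occurred at several places in the genome. The median was 7 exact places in the genome (quartiles 3 and 12), 95 members had 1 place, 547 had 2 to 10 and 297 had more than 10. More than 10 places were found for 31.6% of members, 23.5% of all shared peaks and 3.59% of those on coding exons. A coding exon held a copy of 730 members, another pseudogene of 642, and the mitochondrial chromosome of 22. The 939 peaks had 925 different central sequences, and 13 sequences were found under more than 1 member. These counts compare 20-nt windows in the same frame only. Members on the same stretch of a parent whose bins are out of step count as different, so the counts do not show how much sequence the members share. With 40 nt and up to 2 mismatches, 66 members had no other place in the genome and 373 (39.7%) had 10 or more. No share of all shared peaks at this setting is given, so these counts describe the members alone. The authors' alignment kept up to 10 places per read, all with the fewest mismatches, so the 20 nt of 297 members occur more often than a read was placed, although the reads themselves can be longer than 20 nt.

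**Figure D2:**
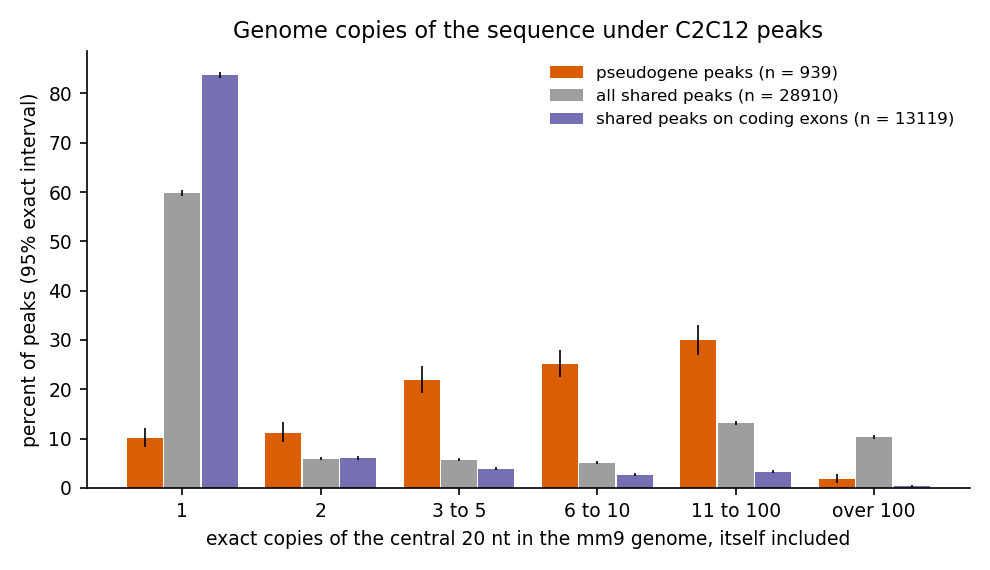
Number of exact copies of the central 20 nt of a peak in mm9, itself included (x axis), against the percent of peaks (y axis, bars with exact 95% intervals), for the 939 pseudogene peaks, all C2C12 shared peaks and the shared peaks on coding exons. A single place was found for 10.1% of pseudogene peaks, 59.8% of all shared peaks and 83.8% of peaks on coding exons.

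Reads per bin of the members ranged from 6 to 35 in both libraries, with a median of 8 in replicate 1 and 8.5 in replicate 2, beside a median of 8 in both libraries over all shared peaks. A mean of 10 reads per bin was reached by 306 members (32.6%), against 26.2% of all shared peaks, and a mean of 20 by 11. Replicate 1 was higher at 385 members, replicate 2 at 405, and 149 were equal. The libraries differed by more than 1.5 times at 156 members (16.6%), a share not given over all shared peaks. Across the 939 members Pearson's r of log2 reads between the libraries was 0.54, a description over peaks that share sequences, and it was 0.58 over all shared peaks. Peaks whose RNA came from the strand opposite to a pseudogene were few: with the strands reversed in the rule there were 36 shared peaks, of which 16 lay on a coding gene on the strand of the RNA and 20 had no coding gene on either strand.

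**Figure D3:**
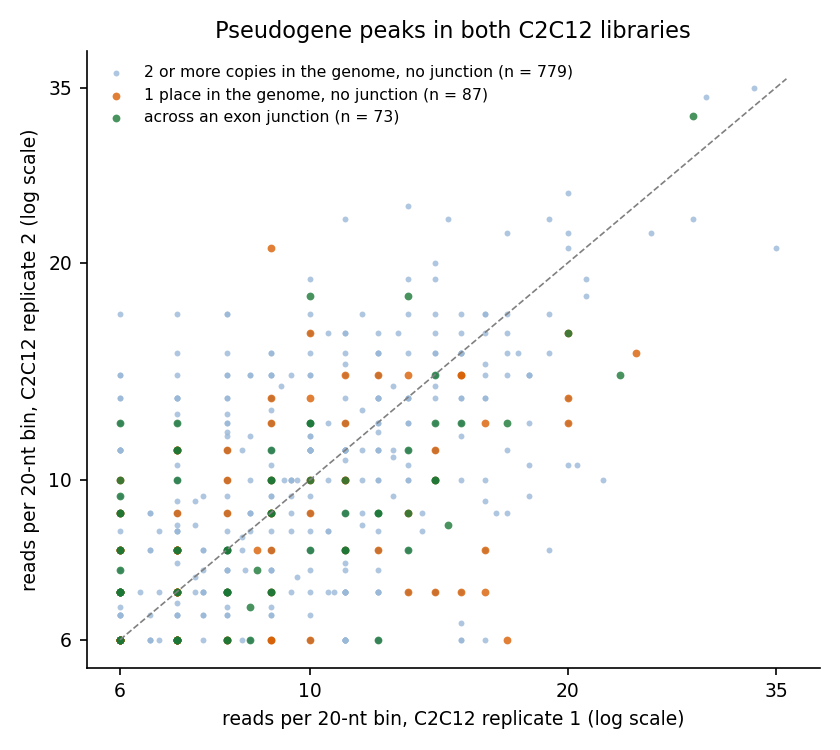
Reads per 20-nt bin in C2C12 replicate 1 (x axis) and replicate 2 (y axis), both on log scales, one point for each of the 939 pseudogene peaks, with the dashed line at equal reads. Colours mark peaks with 2 or more copies in the genome and no junction, those with 1 place and no junction, and those across an exon junction. The first reach a mean of 34 reads, the second 19.5 and the third 30, and the points farthest up lie near 35 reads.

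Of the 6 pseudogenes with at least 15 members, 5 are copies of cytoskeletal, glycolytic and translation factor genes, and the other, Gm13340, a mitochondrial copy, is described further on. Gm12715, a copy of Actg1, which encodes cytoplasmic actin, held 18 members on chromosome 4, at 103235929 to 103237833. Their reads in replicate 1 ran from 6 to 19 and in replicate 2 from 6.75 to 19, and all 18 had another copy in the genome. Gm13699 (Eno1) held 16 members, and apart from the junction member above its highest was at 80677801 to 80677840, with 14.5 and 23 reads. Gm13456, a copy of Eef1a1, the elongation factor that brings tRNAs to the ribosome, also held 16. Its member at chromosome 2, 40411641 to 40411660, had 35 reads in replicate 1 and 21 in replicate 2 (28.0 ± 9.90, SD, n = 2), and the one at 40411501 to 40411520 had 28 and 23. In reads, though not as a ratio, the libraries differed more at the first of these than at any other member. Gm14150, a copy of the tubulin gene Tuba1b, held 15 members, with 29 and 34 reads at 151285381 to 151285400 on chromosome 2 (31.5 ± 3.54, SD, n = 2) and 25 and 22 at 151285121 to 151285140. Gm5620, another Tuba1b copy, held 15 as well, and its reads stayed between 6.5 and 17 in replicate 1 and between 6.5 and 24 in replicate 2.

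**Figure D4:**
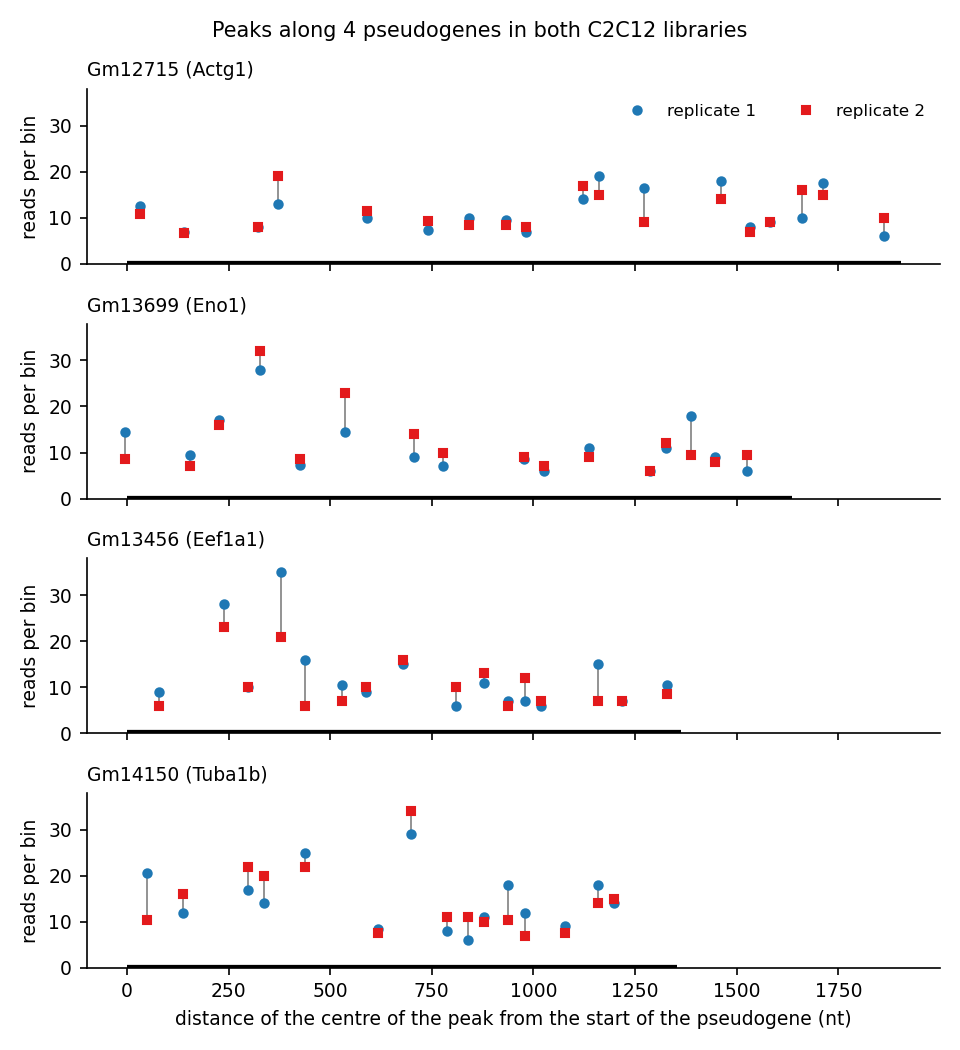
Reads per 20-nt bin (y axis) of each peak on Gm12715, Gm13699, Gm13456 and Gm14150 in replicate 1 (circles) and replicate 2 (squares), by the distance of the peak's centre from the start of the pseudogene (x axis, nt), with the black bar marking the length of the pseudogene and grey lines joining the libraries. The peaks run along most of each pseudogene, up to 35 reads on Gm13456. Both libraries have their highest peak at the same position on Gm13699 and Gm14150, and at different positions on Gm12715 and Gm13456.

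The sequences under the highest members show how little separates them from the coding transcript. They are 8 of the 10 members with the most reads outside one tubulin pseudogene described further on, and capitals mark bases that differ from the closest coding transcript, which is named in each line.
Gm14150 (chromosome 2, 151285381 to 151285400, plus strand, Tuba1b): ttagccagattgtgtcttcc
Gm13699 (chromosome 2, 80677601 to 80677620, plus strand, Eno1): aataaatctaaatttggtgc
Gm13456 (chromosome 2, 40411641 to 40411660, plus strand, Eef1a1): agacccgcgagcatgctctt
Gm13456 (chromosome 2, 40411501 to 40411520, plus strand, Eef1a1): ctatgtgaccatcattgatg
Gm14150 (chromosome 2, 151285121 to 151285140, plus strand, Tuba1b): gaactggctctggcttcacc
Gm6682 (chromosome 12, 4789021 to 4789040, plus strand, Tuba1a): atcAgcaatgcctgctggga
Gm10051 (chromosome 5, 133951121 to 133951140, plus strand, Rpl28): aattcaccgcaagaccgtcg
Gm11942 (chromosome 4, 33051961 to 33051980, plus strand, Rplp1): agcagctggtgtcagcgtcg

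Of these 8, 7 were identical to the coding transcript over the 20 nt, and the Gm6682 member carried G4A, counted from the 5′ end with the base of the coding transcript first. That member held 20 and 25 reads. Gm10051, a copy of the ribosomal protein gene Rpl28, held 19 and 23 reads, and Gm11942, which matches Rplp1 of the ribosomal stalk, 21 and 19.

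Of the 95 members that occur once in the genome, 8 crossed a junction and are also found in the spliced mRNA of the parent. The 87 others were found in no coding transcript, so that over the 20 nt the pseudogene differs from any coding transcript by at least 1 base. The reads of these 87 had a median of 8 in both libraries, next to 8.33 and 8.5 at the 730 members with a copy in a coding exon. The 8 with the most reads that differ from the closest coding transcript by a single base follow, chosen after their values were seen, each pseudogene above its coding transcript, with the differing base in capitals.
Gm8399 (chromosome 13, 81204441 to 81204460, plus strand): gTtgtccggaggcactcttc
Actg1 transcript: gGtgtccggaggcactcttc
Gm6065 (chromosome 7, 18377961 to 18377980, plus strand): tgaTgagcccttgggccgcg
Ppia transcript: tgaCgagcccttgggccgcg
Gm11950 (chromosome 11, 3529221 to 3529240, plus strand): Tcagaacggtccgtccccca
6430527G18Rik transcript: Ccagaacggtccgtccccca
Gm9143 (chromosome X, 100233041 to 100233060, plus strand): ttctatAagaagcgcatggc
Rps6 transcript: ttctatGagaagcgcatggc
Gm16103 (chromosome 1, 43843061 to 43843080, plus strand): tgGcatcctgggagtgtccc
Eno1 transcript: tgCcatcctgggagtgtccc
Gm13340 (chromosome 2, 22443661 to 22443680, minus strand): tggctgccctccaccataCc
mt-Co1 transcript: tggctgccctccaccataTc
Gm12912 (chromosome 4, 74794501 to 74794520, plus strand): caaaaaTgacccaccaatgg
Eef1a1 transcript: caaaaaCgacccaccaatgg
Gm15796 (chromosome 5, 38898861 to 38898880, plus strand): gAcaaagtcaccaagtctgc
Eef1a1 transcript: gGcaaagtcaccaagtctgc

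Gm8399, which carries G2T, held 24 reads in replicate 1 and 15 in replicate 2 (19.5 ± 6.36, SD, n = 2), the highest of the single-place members, and the peak also lies on a lincRNA entry. Gm6065, with C4T against the prolyl isomerase gene Ppia, held 15 and 14 reads. Gm9143, with G7A against Rps6, held 14 and 11, and Gm16103, with C3G against Eno1, held 14 and 10. The Eef1a1 copies Gm12912 (C7T) and Gm15796 (G2A) held 10 and 13 reads and 16 and 7, so the second differed between libraries by more than its lower value. Gm11950, with C1T, held 10 and 16. The aligner allowed up to 2 mismatches but kept for each read only the places with the fewest, so a read that fits the parent gene over its whole length without a mismatch was not placed on a copy that differs within it. This does not hold for a read across a junction of the parent mRNA, and the members on Gm8399, Gm6065 and Gm16103 were centred 21 to 26 nt from such a junction. With 40 nt and up to 2 mismatches each of these 8 members had between 1 and 12 other places. Whether the reads themselves carried the pseudogene's base was not tested, since the reads were not analysed here.

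A smaller set had no other place at 40 nt with up to 2 mismatches, a single place at 20 nt and no match in a coding transcript. No such share is given over all shared peaks, and the set held 36 members (3.83%) on 29 pseudogenes. Of these, 12 lay in 5 genes that RefSeq, in a table built on GRCm38, classes as protein-coding: Cebpd, a transcription factor gene of the C/EBP family, H1f0, which encodes a linker histone, BC003965, Tmem185b and Ankrd57. The 4 members on Cebpd held 16 and 8, 9 and 6, 6 and 8, and 17 and 6 reads in replicates 1 and 2, and those on H1f0 9 and 21, and 9 and 12. In all, RefSeq classed 16 of the 384 pseudogenes whose symbols it matched as protein-coding, with 35 members, 351 as pseudogenes and 16 as transcribed pseudogenes. In 6 of the 36 members part of the 40 nt lay outside the pseudogene. Among them were the Rps28 copies Gm10443 (20 and 16 reads) and Gm16020 (20 and 12) and the Rps27a copy Gm8430 (20 and 13), whose peaks all lay at the first base of the annotated pseudogene. The remaining 3 of these 6 had means of 6 to 8.5 reads. Of the members that lay in no RefSeq coding gene and had the whole 40 nt inside the pseudogene, the highest, on the Pkm2 copy Gm17138, held 13 and 14 reads, and the next, on the Dnaja1 copy Gm6806, 12 and 14.

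Of the 844 members with another copy, 690 (81.8%) had a C2C12 shared peak at 1 or more of those copies, against 77.2% of all shared peaks with another copy. Among members with 2 to 10 places the share was 74.2% (70.3 to 77.8%), against 57% of all shared peaks with as many. At the corresponding position of the closest coding gene, a shared peak was found for 366 of the 838 placed members (43.7%, 40.3 to 47.1%). The share was 47.6% (43.3 to 51.9%) for members at least 30 nt from a junction and 25% (16.4 to 35.4%) for those less than 10 nt from one. No such share is given for other positions of the same transcripts. The parents' own peaks were also few within 10 nt of a junction (3.95%, against 6.07% of positions). Where member and coding gene both had a peak, the coding gene had more reads in replicate 1 in 163 cases, fewer in 149 and as many in 54. The median was 9 reads on both sides. The Gm13456 member of 35 reads in replicate 1 faced 8.33 reads at Eef1a1, and the Gm14150 member of 29 faced 9.60 at Tuba1b, both of them means over wider peaks; these members were chosen for their high reads, so the lower value at the coding gene is no finding. Bins start at multiples of 20 nt, so most copies fall into bins that are out of step. Of the 2735 copies that fell in step with a single-bin member, 236 (8.63%) lay in a replicate 1 peak, and 41 of the 236 had exactly the member's number of reads. Of these copies, 2649 belonged to members with more than 10 exact places, beyond the aligner's limit. For members with at most 10 places, 28 of 86 copies (32.6%) lay in a peak, and 10 of the 28 were equal. Among the 125 of the 2735 copies in coding exons, 41 (32.8%) lay in a replicate 1 peak, and 14 of the 41 had the member's number of reads. No share of equal reads is given for unrelated peaks, which can tie at such low counts. Whether the same reads were counted at both places was not tested.

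Several parents had more peaks on their pseudogenes than on themselves. The closest coding genes numbered 198, and 18 of them accounted for 443 members. Gapdh, which encodes a glycolytic enzyme, had 63 members on 22 pseudogenes and 3 shared peaks of its own, and Rps2, of the small ribosomal subunit, 55 members on 26 pseudogenes and 5 of its own. The median number of exact places in the genome was 76 for the Gapdh members and 50 for those of Rps2, against 7 over all members. Tuba1b had 47 members on 4 pseudogenes against 16 peaks of its own, Eef1a1 40 on 6 against 23, Actg1 38 on 6 against 17 and Hspa8, a constitutive chaperone, 25 on 4 against 14. The reverse held for Pkm2, which encodes a pyruvate kinase, with 10 members against 41. Over all 198 genes, 81 had more members than shared peaks of their own, 82 had fewer, 35 had as many, and 27 had no shared peak at all. Each of these genes was included because it had a member, whereas its own peaks were not required. Those were counted over the whole gene, introns included.

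**Figure D5:**
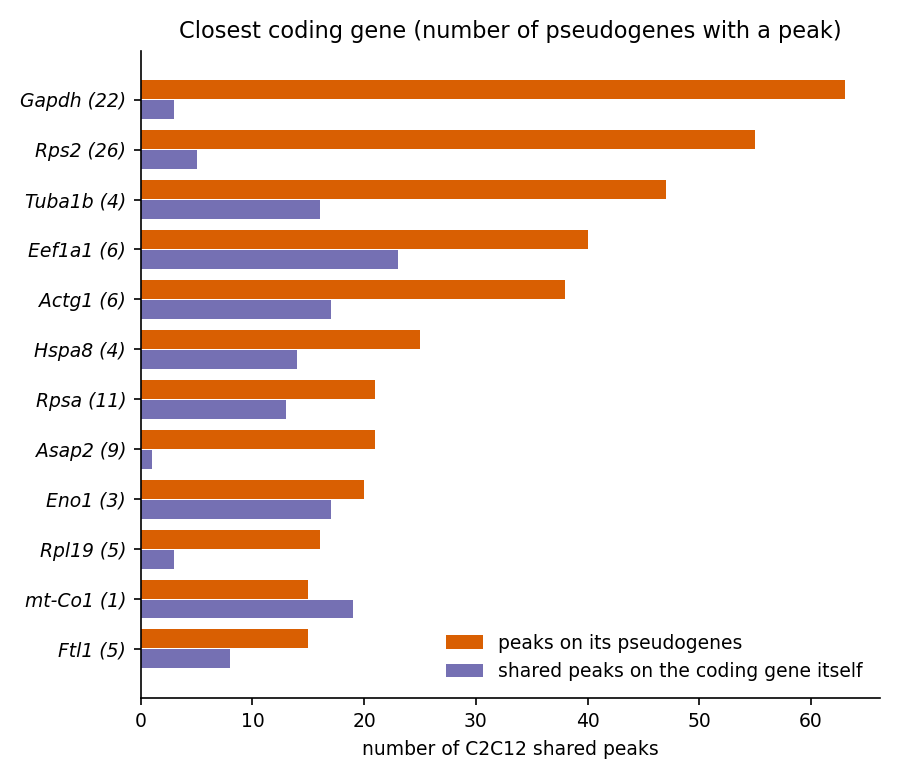
Number of C2C12 shared peaks (x axis) on the pseudogenes of each closest coding gene (upper bar) and on the coding gene itself (lower bar), for the 12 coding genes with at least 15 pseudogene peaks, with the number of pseudogenes in parentheses. Gapdh has 63 peaks on 22 pseudogenes and 3 on the gene, whereas mt-Co1 has 15 and 19. Peaks in introns of the coding gene are included.

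By the function of the parent, the pseudogenes of ribosomal proteins were the most numerous, with 296 members on 168 pseudogenes. Gm15710, annotated with introns and closest to Rpl13, held 7, of which 2 could be placed on Rpl13, and Gm9625 and Gm14165 (both Rplp0) and Rpl19-ps11 held 5 each. The median over the group was 8.5 reads per bin, and 38 of its 296 members crossed a junction, next to 7 of 66 for the translation factors, 7 of 115 for the glycolytic genes and 2 of 105 for the cytoskeletal genes. Copies of glycolytic genes had 115 members on 39 pseudogenes, with Gm12537 (Gapdh, 8 members) next to Gm13699, and Gm12671 and Gm13394 (Gapdh, 6 each) after it. Copies of cytoskeletal genes had 105 members on 19 pseudogenes with a median of 10 reads per bin, and the highest mean of all members, 34, was among them. It lay on Gm17383, a Tuba1b copy with 12 members, where 33 and 35 reads were listed (34.0 ± 1.41, SD, n = 2). Gm8399, the Actg1 copy described above, held 10.

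Copies of translation factor genes had 66 members on 19 pseudogenes, among them the Eef1a1 copies Gm6767 (8 members), Gm6548 (6) and Gm5822 (5) besides Gm13456. Copies of chaperone and prolyl isomerase genes had 46 on 17, led by Gm15459 (14) and Gm8355 (7), both from Hspa8, and by Gm6368 (4), from Hsp90ab1. Reads on Gm15459 ran from 6 to 16 in replicate 1 and from 6 to 11 in replicate 2, with medians of 7.67 and 7.5. Copies of RNA-binding protein genes had 31 members on 17 pseudogenes, with Gm12183 (Ddx5, an RNA helicase, 5 members), Gm10052 and Gm5643 (both Hnrnpa1, 4 and 3) and Gm12966 (Srsf5, 3). Copies of chromatin genes had 26 on 18, led by Gm9800 (Ptma, 4) and Gm8203 (H2afz, a histone variant, 3). The ubiquitin and proteasome copies had 11 members on 4 pseudogenes, of which Gm1821, from the polyubiquitin gene Ubb, held 7 with a median of 10 reads in replicate 1 and 12 in replicate 2. The groups were defined by patterns of gene symbols. Copies of nuclear genes for mitochondrial proteins (10 on 6), of nuclear transport and cell cycle genes (4 on 4) and of zinc finger genes (3 on 2) were few, and 226 members on 113 pseudogenes matched none of the patterns, 13 of them on the 7 pseudogenes with no closest coding gene. Copies of mt-Co1 (15 members) and mt-Co2 (6), genes of the mitochondrial genome, of the RNA-binding protein gene G3bp1 (4), and the histone gene Hist2h3c2 (5) are among the 226. So was the member on Gm8401, a copy of Ythdf2, itself an m6A reader, with 8 reads in both libraries.

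A few of the pseudogenes are not copies of nuclear mRNAs of this kind. Gm13340, on chromosome 2 at 22443623 to 22445167, matches mt-Co1 of the mitochondrial genome with 97.6% identity and held 15 members, 11.5 reads in replicate 1 and 11.7 in replicate 2 at the median. Of these 15, 13 were found exactly in mt-Co1, and the others differed from it by T19C, in the sequence given above, and by G20A in the member at 22445081 to 22445100, with 6 reads in both libraries. The mt-Co1 gene had 19 shared peaks of its own. 5830417I10Rik, which RefSeq classes as a transcribed pseudogene, matches Gon4l, a regulator of transcription, over 56.1% of its exons. Its 9 members on chromosome 3, at 88579138 to 88630250, all had another copy in the genome, with a median of 8 reads in replicate 1 and 7 in replicate 2, and the largest difference was 15 against 6. Copies that match Asap2, a regulator of Arf proteins, held 21 members on 9 pseudogenes with a median of 26 exact places, and 4 of the 21 were found in a coding transcript.

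GGAC, the core of the sequence that the m6A writer prefers, was found within the central 60 nt of RNA of 154 members (16.4%, 14.1 to 18.9%), against 17.9% of all shared peaks and 21.6% of those on coding exons. GGACT was found in 38 (4.05%, 2.88 to 5.51%), against 5.49% of all shared peaks and 5.98% of those on coding exons. A match of these letters on the RNA strand is a description of the sequence, and methylation was not measured here. Among the named members, the Gm13699 junction member and the Gm13456 member at 40411501 had GGAC in that window, and the Gm14150 member at 151285381 did not.

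In ASC-48h, 185 members (19.7%, 17.2 to 22.4%) overlapped a peak of at least 1 of the 4 libraries, against 14.5% of all C2C12 shared peaks and 6.43% of those on coding exons, and no test was run on these shares. Of the 185, 128 did so in 1 library, 43 in 2, 11 in 3 and 3 in all 4. The libraries held 24, 95, 43 and 97 of these overlaps in the order of biological replicate 1, technical replicates 1 and 2, and biological replicate 2, technical replicates 1 and 2. The ASC libraries listed 7925 to 19448 peaks each, fewer than C2C12, so that the cell type, the number of starting cells and the number of peaks called cannot be told apart here. An ASC shared peak, one of biological replicate 1, technical replicate 1, that overlapped its counterparts in the other libraries, touched 4 members (0.426%, 0.116 to 1.09%), against 5.23% of all C2C12 shared peaks and 0.290% (0.205 to 0.397%) of those on coding exons. These lay on Gm13340 (8 and 7.5 reads in C2C12), on Hist2h3c2, which RefSeq classes as a coding histone gene (8 and 11.5) and which itself met a peak of 3 of the libraries, on Gm15710 (6 and 6) and on Gm13993 (6 and 6). The Gm15710 member held 6 reads in every library of both cell types and is the other member beside a G run. The part of the run in that result was not tested.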

How the data were processed

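LACE-seq peak lists of 6 libraries were used, 2 of C2C12 and 4 of ASC-48h. The authors trimmed reads with cutadapt 1.15, removed those matching pre-rRNA, aligned the rest to mm9 with Bowtie 1.2.3 at up to 10 places per read with up to 2 mismatches, keeping the places with the fewest, and called peaks in each library with Piranha in 20-nt bins; the settings are named for ASCs, and the handling of duplicate reads is not given in the sources used here. The deposited signal counts reads in a 20-nt bin, averaged over the bins of wider peaks and not normalized, and the deposited p-value is Piranha's, unadjusted and below 0.001 at every member. Copies of a sequence can each be credited with the same read.

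Peaks were intersected with GENCODE vM1 in Python 3.11.15. The central 20 nt, and 40 nt with up to 2 mismatches, were searched in mm9 and in spliced coding transcripts, and the searches were checked on simulated data. The closest coding gene came from blastn 2.17.0, taking genes with introns and a full symbol first, a preference set after the matches were seen. Intervals are exact Clopper-Pearson at the 95% level, and no test between conditions was made. Members, gene groups and lists were chosen with earlier results of these data known. Named pseudogenes are the 12 with the most members, those that hold the 10 members with the most reads, overall and across junctions, those with a member on an ASC shared peak, and up to 4 in each parent group. Further pseudogenes, those with a single place in the genome among them, were named after their values were seen. The alternatives changed the overlap, the p threshold, the list counted, the libraries, the genes and runs left out, the peak width, the chromosomes and the sequence searched. Some named genes and sequences are not reported here.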

Additional observations from a re-analysis of the deposited data

How the results depend on the processing

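The counts and shares kept within 1.5 times or within their interval under most alternatives. With p of at most 0.00001 in both libraries, 170 members on 118 pseudogenes were counted, with a median of 13 reads per bin, and 0 of the 170 overlapped an ASC shared peak, a count that allows a share of up to 1.76% (3 counts of the 170). With a single library, 1577 to 1590 peaks were counted, 622 to 626 pseudogenes held one, the share in a spliced coding transcript was 81.2 to 82.8%, the median was 7 to 7.5 reads, and the shares with another copy, across a junction and on an ASC shared peak were 89.8 to 90.2%, 7.36 to 7.55% and 0.252 to 0.317%. Restricted to single-bin peaks, 81.0% were found in a coding transcript. With 40 nt and up to 2 mismatches, 93.0% had another place, 89.1% were found in a coding transcript and 15.7% crossed a junction. These shares describe the members alone, since none is given for all shared peaks under the same search. The other alternatives moved no value outside its interval or beyond the spread between libraries. Peaks under 6 reads per bin were not listed, so weaker binding to a pseudogene was not detectable at this depth. No paired analysis was possible because no test compares the cell types, whose replicate numbers name separate samples.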
